A study of Arabidopsis thaliana with 12 samples.

Results

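Upper promoter sites are the accessible regions of the Arabidopsis thaliana seedling genome that lie upstream of a gene but beyond its core promoter. They were taken from a list of 23226 Tn5 hypersensitive sites (THSs), stretches of DNA in which the transposase Tn5 inserted sequencing adapters often enough to be called open chromatin. A THS counted as an upper promoter site where its midpoint lay outside every gene record, more than 300 and at most 1000 bp upstream of the nearest transcription start site (TSS) of a protein-coding gene, and not between a pair of neighbouring divergent TSSs at most 2000 bp apart. The rule found 2420 sites, 10.4% of the list (95% Wilson interval 10.0 to 10.8%). The ATAC-seq libraries came from nuclei of whole seedlings collected 10 days after germination, with 2 replicates for each of 6 genotypes. The Polycomb group (PcG) mutants were bmi1abc and ring1ab, which carry mutations in RING finger genes of Polycomb repressive complex 1, clf28swn7, mutated in the H3K27 methyltransferase genes CLF and SWN, emf1-2, mutated in EMF1, and lhp1, mutated in LHP1. The wild type (WT) was Col-0. The seedlings mix many cell types, and bmi1abc, clf28swn7 and emf1-2 seedlings keep embryonic traits, so the tissues sampled differ between genotypes. The list merges the THSs of all genotypes and gives a chromosome, a start and an end for each. It is longer than the consensus that the study describes after dropping THSs of weak signal, so every count, share and density below may include weak sites, and how many was not tested. It attaches neither a genotype nor a signal to a site, so mutants and WT were not compared, replicates give no spread for any value below, and the read depth behind a site is unknown. The intervals given below cover counting error over sites only, and neighbouring sites are not independent.

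In plants most sequence that controls when a gene is transcribed lies upstream of its TSS. The core promoter, next to the TSS, is where the transcription machinery assembles, while sequence farther upstream holds additional binding sites for transcription factors that respond to light, hormones, stress and developmental stage. PcG proteins keep many developmental regulators silent through the histone marks H2AK121ub and H3K27me3, and the study asked how these marks relate to open chromatin. For 12 short DNA motifs, each with a known class of binding factor or a known promoter context, occurrences were counted on both strands in the central 200 bp of each site. They were the G-box CACGTG (bound by bHLH and bZIP factors), the site II element TGGGCC (TCP factors), the GA repeat GAGAGA (BPC factors), the W-box core TTGACC (WRKY factors), the auxin response element TGTCTC (ARF factors), the HD-ZIP site AATNATT, the telo-box AAACCCTA, the GCC-box GCCGCC (ERF factors), the DRE core GCCGAC (DREB factors), the evening element AAAATATCT (clock MYB factors), the I-box core GATAAG of light-regulated promoters and the AC element ACCTAC (R2R3 MYB factors). The GCC-box and the DRE core can overlap each other, and a match is a description of the letters, not evidence that a factor binds.

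The following upper promoter sites show what such sequence looks like. They carry the 4 motifs whose share in sites was higher than in unlisted sequence by the most, or lie at genes that the results below return to. Sequences are from the RefSeq assembly TAIR10.1, read 5′ to 3′ on the strand of the gene, and capitals mark the motif named. The whole site upstream of CYP86C3, a cytochrome P450 gene (chr1:4480690-4480837, minus strand), holds 4 site II elements, a pair of which overlap. The whole site upstream of CYP702A3, another P450 gene (chr4:8735764-8735988, plus strand), holds 2 G-boxes. The site of AGL97, a MADS-box gene (chr1:17233384-17233492, minus strand), has 2 W-box cores side by side, and the site of the P450 gene CYP722A1 (chr1:6788575-6788855, minus strand) has 1 auxin response element. The last 3 were chosen after their values were seen. They are a stretch of 120 bp of the RING1A site with 2 site II elements (chr5:17839685-17839804, minus strand), the whole site of the floral regulator SEP3 with 1 G-box (chr1:8596556-8596653, minus strand), and a stretch of 120 bp of the site of the proteasome gene RPN1A with 8 overlapping or separate GA repeats (chr2:8858139-8858258, plus strand). All 7 lie between genes.
CYP86C3: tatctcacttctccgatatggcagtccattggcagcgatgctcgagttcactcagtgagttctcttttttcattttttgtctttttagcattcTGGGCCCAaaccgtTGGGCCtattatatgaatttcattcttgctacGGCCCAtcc
CYP702A3: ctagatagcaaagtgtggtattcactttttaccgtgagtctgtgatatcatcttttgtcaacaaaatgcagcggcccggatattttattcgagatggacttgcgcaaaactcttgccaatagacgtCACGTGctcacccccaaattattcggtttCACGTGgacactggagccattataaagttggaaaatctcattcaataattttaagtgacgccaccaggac
AGL97: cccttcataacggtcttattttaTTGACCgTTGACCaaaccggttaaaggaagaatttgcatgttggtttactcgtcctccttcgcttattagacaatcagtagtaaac
CYP722A1: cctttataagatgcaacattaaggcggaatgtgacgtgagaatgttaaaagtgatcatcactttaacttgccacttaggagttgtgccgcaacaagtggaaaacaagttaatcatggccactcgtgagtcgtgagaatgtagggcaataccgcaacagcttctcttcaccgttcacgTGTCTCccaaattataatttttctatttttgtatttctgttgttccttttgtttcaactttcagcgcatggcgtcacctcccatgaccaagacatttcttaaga
RING1A: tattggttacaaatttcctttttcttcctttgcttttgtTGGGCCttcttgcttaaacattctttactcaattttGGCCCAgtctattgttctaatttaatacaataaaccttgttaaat
SEP3: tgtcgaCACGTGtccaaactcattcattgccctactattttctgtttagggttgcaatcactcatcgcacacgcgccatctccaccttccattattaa
RPN1A: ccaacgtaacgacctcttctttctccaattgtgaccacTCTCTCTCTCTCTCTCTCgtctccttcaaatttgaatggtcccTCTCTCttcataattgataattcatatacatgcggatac

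Upper promoter sequence held fewer sites per kb than core promoter sequence, about as many as the next 1000 bp upstream, and more than distal upstream sequence as a whole. The sequence that would pass the rule as a midpoint, called eligible sequence here, amounted to 8.11 Mb or 6.81% of the genome. It held 0.298 upper promoter sites per kb (exact Poisson interval 0.287 to 0.311), against 0.747 core promoter sites per kb (0.723 to 0.772) in the 300 bp before the TSS, where 3534 sites were centred. The ratio of these densities was 0.399 (exact binomial interval 0.379 to 0.421). Against the sequence more than 1000 and at most 2000 bp upstream, with 0.279 sites per kb, the ratio was 1.07 (1.004 to 1.14), and the lower bound of that interval lies just above 1. All eligible sequence more than 1000 bp upstream held 0.222 sites per kb (0.215 to 0.230). Within the upper promoter the density showed no slope that exceeded counting error, since the farther 350 bp held 0.305 and the nearer 350 bp 0.293 sites per kb (ratio 1.04, interval 0.963 to 1.13). In bins of 50 bp the upper promoter ranged between 0.247 and 0.340 sites per kb, whereas core promoter density peaked at 1.08 sites per kb at 51 to 100 bp and was 0.376 in its last bin. Within 2000 bp of the TSS, most of the drop in density with distance thus lay in the core promoter.

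**Figure D1:**
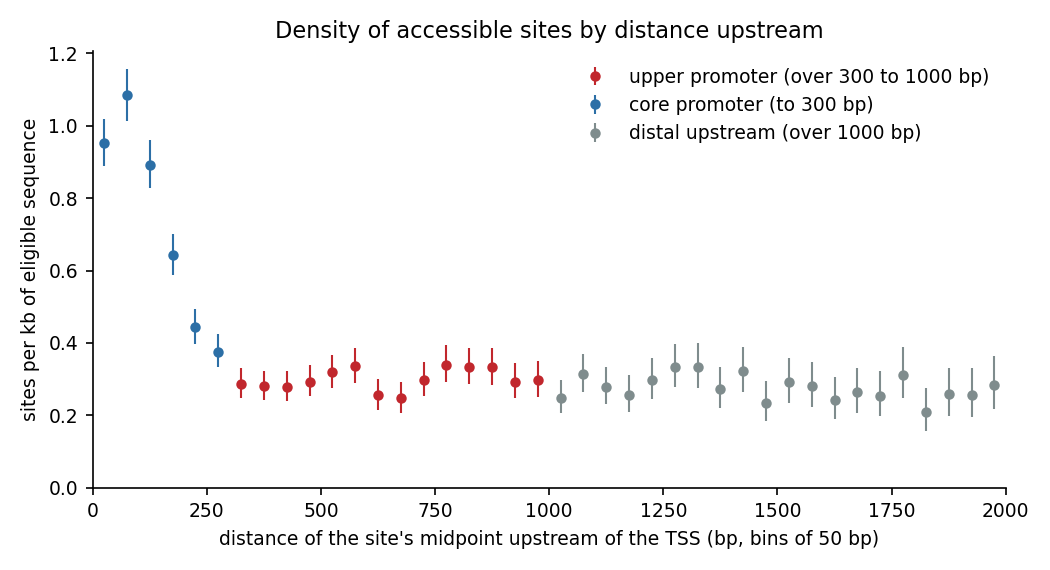
Sites per kb of eligible sequence (y axis) in bins of 50 bp of distance upstream of the TSS (x axis), with exact 95% Poisson intervals as bars, for upper promoter (red), core promoter (blue) and distal upstream sites (grey). Upper promoter bins sit between 0.247 and 0.340 sites per kb, below all core promoter bins, the highest of which reaches 1.08.

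The 5 chromosomes carried upper promoter sites at similar densities. Chromosome 1 had 648 sites (0.313 per kb), chromosome 2 had 372 (0.270), chromosome 3 had 463 (0.306), chromosome 4 had 387 (0.307) and chromosome 5 had 550 (0.291). Chromosome 2 was lowest, with an interval of 0.244 to 0.299 that overlaps those of the other 4, including chromosome 1 (0.289 to 0.338). Of all sites, 48.6% lay upstream of a gene on the plus strand.

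Upper promoter sites were close to core promoter sites in median length but much more often very long. Their median length was 305 bp (order-statistic interval 294 to 316 bp), the quartiles were 193 and 513 bp, and the range was 4 to 2070 bp. Core promoter sites had a median of 287 bp (280 to 294 bp), so the intervals of the medians met at 294 bp. Among regions of at least 200 bp only, the medians differed by 56 bp and the intervals did not meet. With a lower distance limit of 400 bp the medians differed by 2 bp and the intervals overlapped. Distal upstream sites, centred more than 1000 bp upstream, had a median of 277 bp (271 to 285 bp). Regions of at least 1000 bp made up 91 upper promoter sites (3.76%) and 16 core promoter sites (0.453%), a difference of 3.31 percentage points (Newcombe interval 2.57 to 4.16). The share was 3.12% in distal upstream sites, and the difference of 0.645 points has an interval that includes 0 (-0.283 to 1.63). Short pieces under 200 bp, the extension size of the peak calls, were 27.1% of upper promoter sites and 25.7% of core promoter sites, with a difference of 1.35 points that also includes 0 (-0.926 to 3.64). The median length was 402 bp for midpoints at most 400 bp upstream and 292 to 297 bp in every later step of 100 bp. The longest sites were not among the nearest, as the 5 longest were centred 457 to 907 bp upstream. A core promoter site centred near 300 bp was long as well, with a median of 428 bp in its outermost 100 bp.

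**Figure D2:**
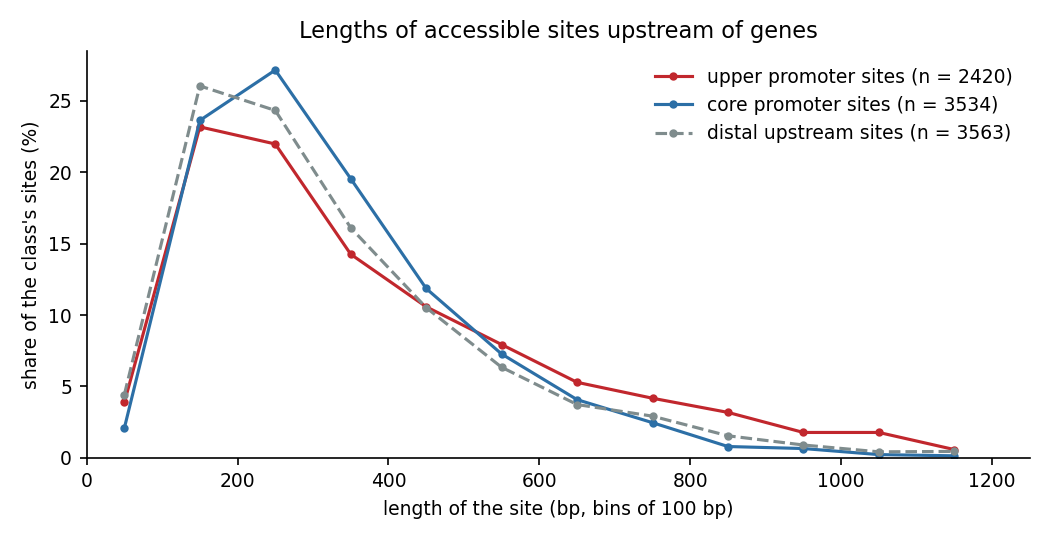
Share of sites (y axis, percent of each class) by length in bins of 100 bp up to 1199 bp (x axis), for 2420 upper promoter, 3534 core promoter and 3563 distal upstream sites, each with one line. Upper promoter sites exceed core promoter sites in each bin from 500 bp on, for example with 4.17% and 2.46% at 700 to 799 bp, and fall below them at 100 to 499 bp.

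Most upper promoter sites stood apart from the TSS. The midpoint lay at a median of 618 bp upstream (interval 602 to 636 bp), and the near edge at a median of 447 bp (435 to 464 bp). For 1722 sites (71.2%) the near edge was also more than 300 bp from the TSS. The remaining 698 sites (28.8%) reached into the core promoter, and 125 of them (5.17%) covered the TSS itself. Of the bases in upper promoter sites 94.6% were outside every gene record and 4.02% inside protein-coding genes, with 281 sites (11.6%) touching such a gene.

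Away from the gene, the next gene record was most often a coding gene. It was the 3′ end of a coding gene for 1212 sites (50.1%), the 5′ end of a coding gene for 684 (28.3%), a noncoding gene for 393 (16.2%) and a pseudogene for 130 (5.37%). A coding 5′ end there is always more than 1000 bp away, because the rule leaves out closer divergent pairs. Of the coding 3′ ends, 300 lay within 300 bp of the midpoint, 374 over 300 to 1000 bp away, 282 over 1000 to 2000 bp and 256 beyond 2000 bp. A noncoding gene with its TSS at most 300 bp downstream of the midpoint was found for 80 sites (3.31%), which are upper promoter sites of a coding gene and at the same time core promoter sites of a noncoding one. Transfer RNA genes were touched by 23 sites (0.950%), the RING1A site among them, which overlaps a lysine tRNA gene.

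Upper promoter sites had other THSs closer by than core promoter sites did. The gap to the nearest other THS had a median of 909 bp (823 to 983 bp). No other THS lay within 1000 bp of 47.9% of upper promoter sites, against 69.6% of core promoter sites, a difference of -21.8 percentage points (-24.3 to -19.3). Against distal upstream sites, at 43.1%, the difference was 4.74 points (2.17 to 7.31). A further THS lay within 500 bp of 36.1% of upper promoter sites and within 150 bp of 6.86%.

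The gene downstream of an upper promoter site had a separate THS at its TSS in 570 of 2420 cases (23.6%, interval 21.9 to 25.3%). Such a TSS site either covered the TSS or was centred in the 300 bp before it. With regions under 200 bp left out the share was 14.6%. Its frequency increased with distance: 10.2% of sites centred at most 500 bp upstream had one, 26.5% of those over 500 to 750 bp and 32.9% of those over 750 to 1000 bp. Upper promoter sites with a TSS site were shorter, with a median of 255 bp (238 to 272 bp), against 325 bp (310 to 340 bp) for those without. Merged regions do not overlap, so a near or long upper promoter site leaves less room for a separate TSS site. How far this accounts for the rise with distance and for the difference in length was not tested. Counted over genes, 23.5% of the genes with an upper promoter site and 27.9% of those without one had a TSS site, a difference of -4.41 points (-6.27 to -2.49). When the upper promoter sites that themselves cover the TSS were counted as TSS sites, the shares were 28.8% and 27.9% and the interval of the difference included 0 (0.876 points, -1.09 to 2.90). Among genes with the full 700 bp of eligible sequence the same counts gave 24.8% and 27.3% (-2.55 points, -4.73 to -0.292). With sites over the TSS counted as well, they gave 29.5% and 27.3% (2.21 points, -0.0807 to 4.56). In none of these 4 counts did genes with an upper promoter site have a TSS site more often beyond counting error.

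Upper promoter sites carried site II elements and G-boxes several times as often as unlisted sequence of the same kind. Unlisted sequence was cut into 27501 tiles of 200 bp of upper promoter sequence that overlapped no THS. A site II element stood in 346 of 2420 upper promoter windows (14.3%) and in 1.83% of tiles, a difference of 12.5 points (11.1 to 13.9). A G-box stood in 237 upper promoter windows (9.79%) and in 1.68% of tiles, a difference of 8.11 points (6.98 to 9.37). It was 4.80 points with windows and tiles of 100 bp and 15.5 points with whole sites searched against tiles of 200 bp. The CYP86C3 and CYP702A3 sites printed above are examples of each. W-box cores were in 12.1% of upper promoter windows and 7.35% of tiles (4.76 points, 3.48 to 6.16), auxin response elements in 11.7% and 7.0% (4.66, 3.40 to 6.03), and GA repeats in 15.0% and 10.8% (4.17, 2.75 to 5.69). AC elements, I-box cores, DRE cores and GCC-boxes were also more frequent in sites, by 0.696 to 2.49 points. In the other direction, HD-ZIP sites were in 21.4% of upper promoter windows and 29.3% of tiles (-7.97, -9.64 to -6.21) and telo-boxes in 1.24% and 1.84% (-0.600, -1.01 to -0.0541). Evening elements did not differ beyond counting error (-0.234, -0.702 to 0.376).

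**Figure D3:**
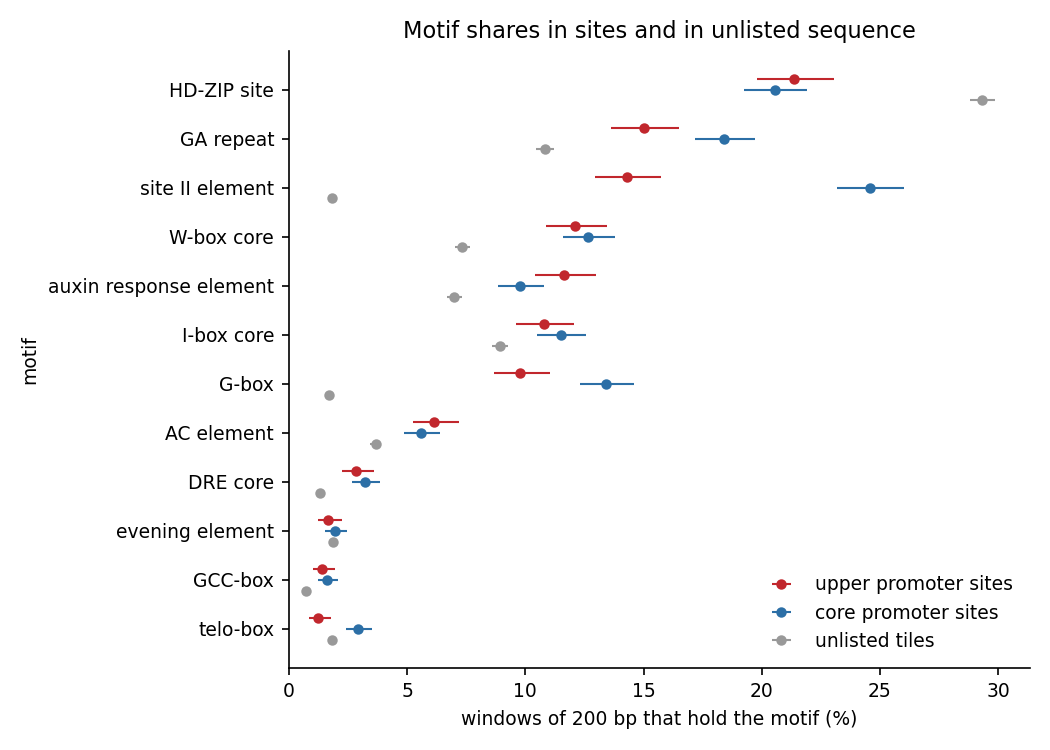
Share of 200-bp windows (x axis, percent) that hold each of 12 motifs (y axis), in upper promoter sites (red), core promoter sites (blue) and unlisted tiles of upper promoter sequence (grey), with 95% Wilson intervals as bars. Site II elements reach 14.3% in upper promoter sites, 24.6% in core promoter sites and 1.83% in tiles, and HD-ZIP sites are the motif with the largest share in tiles, 29.3%.

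Base composition moved with the motif shares. Upper promoter windows averaged 34.3% GC (SD 4.78, n = 2420 windows), against 28.8% in tiles, a difference of 5.59 points (normal interval 5.38 to 5.79). In windows and tiles of 32 to 37% GC only, a restriction chosen after the values were seen, 1073 upper promoter windows and 5845 tiles remained. There, site II elements were in 14.4% of upper promoter windows and 2.96% of tiles (11.4 points, 9.37 to 13.7) and G-boxes in 8.57% and 2.84% (5.73, 4.14 to 7.60). W-box cores (3.97 points, 1.90 to 6.26), auxin response elements (2.56, 0.557 to 4.79) and AC elements (1.82, 0.426 to 3.48) stayed more frequent in sites. GA repeats (0.273, -2.01 to 2.76), GCC-boxes, DRE cores, evening elements and I-box cores had intervals that included 0. The HD-ZIP difference changed sign within this band (2.61 points, 0.0597 to 5.34). With 12 motifs compared, that lower bound close to 0 carries little weight for an excess in sites. Telo-boxes stayed less frequent in sites (-1.59, -2.24 to -0.673). The differences for site II elements and G-boxes were therefore present within this band, and those for GA repeats and HD-ZIP sites were not the same there. Windows and tiles were not matched in GC content inside the band.

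Compared with core promoter sites, upper promoter sites were poorer in site II elements and G-boxes. Site II elements were in 14.3% of upper promoter and 24.6% of core promoter windows (-10.3 points, -12.2 to -8.25), and G-boxes in 9.79% and 13.4% (-3.62, -5.24 to -1.97). The G-box difference was within counting error with distance taken from the nearer edge of a site (-0.723 points) or with whole sites searched (-1.47). GA repeats (-3.42, -5.32 to -1.49) and telo-boxes (-1.68, -2.39 to -0.946) were also less frequent in upper promoter windows. The auxin response element was the exception, with 11.7% of upper promoter and 9.79% of core promoter windows (1.86, 0.271 to 3.5). The other 7 motifs did not differ from core promoter sites beyond counting error. Mean GC content was 34.3% in upper promoter and 35.1% in core promoter windows, and the difference of -0.736 points (-0.990 to -0.482) was small beside that to the tiles. Against distal upstream sites only the W-box core had an interval that excluded 0 (12.1% and 10.5%, 1.64 points, 0.0151 to 3.31), and with 12 motifs compared that single bound close to 0 carries little weight.

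Both motifs were most frequent near the midpoints of upper promoter sites. Occurrences were counted out to 500 bp from every midpoint whatever the length of the site, so the outer bins lie mostly in flanking sequence. G-boxes occurred at 0.686 per kb (exact Poisson interval 0.546 to 0.850) within 25 bp of the midpoint and at 0.107 per kb (0.0572 to 0.184) at 450 to 475 bp. Around core promoter midpoints the innermost value was 0.928 per kb (0.792 to 1.08). Site II elements occurred at 1.13 per kb (0.951 to 1.34) within 25 bp of upper promoter midpoints, against 2.38 per kb (2.16 to 2.62) around core promoter midpoints. At 225 to 250 bp, beyond the edges of most sites, the order was the other way round, with 0.446 per kb (0.335 to 0.582) around upper promoter midpoints and 0.221 per kb (0.157 to 0.302) around core promoter midpoints.

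**Figure D4:**
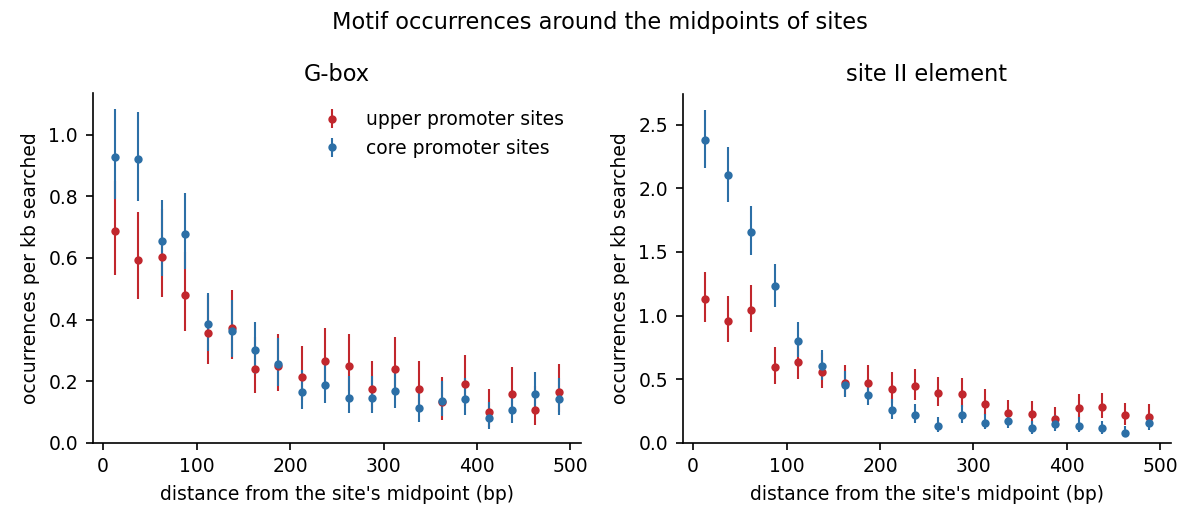
Occurrences per kb searched (y axis) of the G-box (left) and the site II element (right) by distance from the midpoint of the site (x axis, bins of 25 bp, both sides added), with exact 95% Poisson intervals as bars, for upper promoter (red) and core promoter sites (blue), with flanking sequence included where sites are shorter. Site II elements start at 1.13 per kb around upper promoter midpoints and 2.38 per kb around core promoter midpoints, and at 225 to 250 bp the values are 0.446 and 0.221.

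The site II share of upper promoter sites depended on what lay on their far side, a split chosen after the values were seen. Where the far record was the 3′ end of a coding gene, site II elements were in 70 of 300 sites with that end within 300 bp (23.3%), in 14.7% of sites with it over 300 to 1000 bp away, in 8.51% over 1000 to 2000 bp and in 8.59% beyond 2000 bp. The nearest group exceeded the farthest by 14.7 points (8.72 to 20.6). The tiles split in the same way had 1.98% in the nearest and 1.10% in the farthest group, a difference of 0.887 points (0.266 to 1.56). The 23.3% in the nearest group compares with 24.6% of core promoter sites. With any gene record counted, coding 3′ ends included, the site II shares were 24.5%, 15.05%, 12.3% and 10.9% in the same steps of distance. The order was thus not shown to be particular to coding 3′ ends. Behind coding 3′ ends, G-boxes did not follow this order, with 6.33% in the nearest group, 10.2% and 10.6% in the middle groups and 9.38% in the farthest. W-box cores were in 15.0%, 15.2%, 13.5% and 9.77%, and the nearest group exceeded the farthest by 5.23 points, with an interval that included 0 (-0.336 to 10.7).

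Of the 27444 protein-coding genes, 14491 (52.8%) had any upper promoter sequence under the rule, and 2363 of these held at least 1 upper promoter site, which is 16.3% of the genes with such sequence. Where the full 700 bp was eligible, 1849 of 9026 genes held one, or 20.5%. A single site was found at 2306 genes and a pair at 57. Gene lists made from annotated product names were read against these percentages, with no test of a list. Genes differ in how much upstream sequence they have, so the shares below are for genes with the full 700 bp unless another basis is named.

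**Figure D5:**
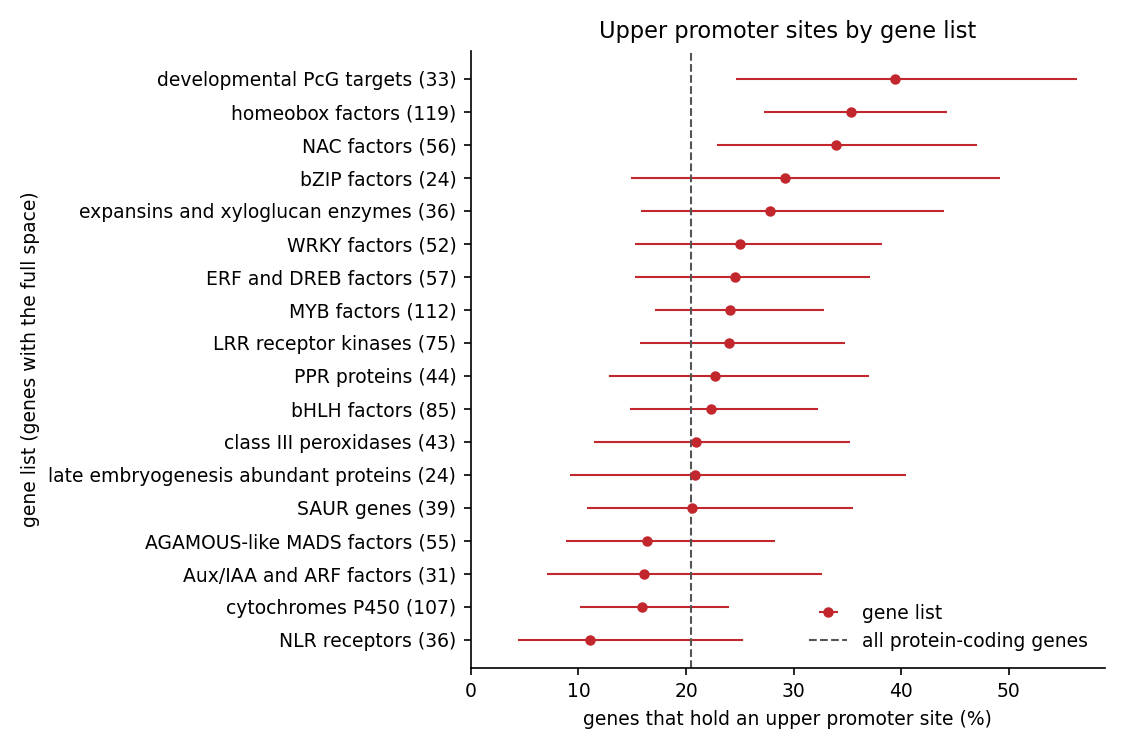
Share of genes with the full 700 bp of upper promoter sequence that hold an upper promoter site (x axis, percent), for lists with at least 20 such genes (y axis, number of genes in brackets), with 95% Wilson intervals as bars and the value of all protein-coding genes, 20.5%, as a dashed line. Developmental PcG targets (39.4%), homeobox factors (35.3%) and NAC factors (33.9%) have intervals above the line, and NLR receptors are lowest with 11.1%.

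Of the 24 lists, those of PcG targets in development, homeobox factors and NAC factors had the highest shares. Genes known as PcG targets in development, a list of 39 genes chosen with earlier results of these data known, held a site in 13 of 33 cases (39.4%, interval 24.7 to 56.3%). The list of homeobox factors did so in 42 of 119 cases (35.3%, 27.3 to 44.2%). Matched by product name, this list of 208 genes takes in genes annotated as homeodomain-like, such as KAN. How many of its genes lie outside the homeobox family was not tested. NAC factors, which include the organ boundary genes, held a site in 19 of 56 cases (33.9%, 22.9 to 47.0%). The intervals of these lists lie above 20.5%. The PcG target list itself holds homeobox genes such as STM and WUS and the NAC genes CUC1 and CUC2, so these lists are not independent. They are among 24 lists read, with no correction for that number. bZIP factors had 7 of 24 (29.2%), WRKY factors 13 of 52 (25%), ERF and DREB factors 14 of 57 (24.6%), MYB factors 27 of 112 (24.1%) and bHLH factors 19 of 85 (22.4%), all with intervals that span 20.5%. AGAMOUS-like MADS factors, at 9 of 55 (16.4%), and Aux/IAA and ARF factors, at 5 of 31 (16.1%), were below that value. Their intervals also spanned it.

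Genes for growth, defence and housekeeping had shares on either side of that of all genes. Expansins and xyloglucan enzymes, which loosen cell walls, held a site in 10 of 36 cases (27.8%), LRR receptor kinases in 18 of 75 (24.0%), class III peroxidases in 9 of 43 (20.9%) and SAUR genes, induced by auxin, in 8 of 39 (20.5%). Cytochromes P450 had 17 of 107 (15.9%) and NLR immune receptors 4 of 36 (11.1%, interval 4.41 to 25.3%). Housekeeping families often lacked the sequence to hold such a site: eligible sequence was present at 18 of 53 ribosomal protein genes, 17 of 45 proteasome genes, 87 of 262 PPR genes and 15 of 55 photosystem and antenna genes, and of these 1, 1, 11 and 2 held a site (5.56%, 5.88%, 12.6% and 13.3%), against 16.3% of all genes with any eligible sequence. With the full 700 bp the counts were 1 of 4 ribosomal protein, 1 of 10 proteasome, 10 of 44 PPR and 2 of 7 photosystem and antenna genes, too few in 3 of these lists to place them against 20.5%. None of the lists in this group had an interval that excluded 20.5%.

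Of the genes the study mutated or tested by sequential ChIP, 8 of 12 had upper promoter sequence and 3 of these held a site (37.5%, interval 13.7 to 69.4%), against 16.3% of all genes. EMF1, whose product acts with PcG complexes, had a site of 1025 bp centred 612 bp upstream, with its near edge 100 bp from the TSS and 1 G-box. RING1A, a subunit of Polycomb repressive complex 1, had a site of 391 bp centred 490 bp upstream with 2 site II elements and 1 G-box, the G-box inside the tRNA gene. AIL5, an AINTEGUMENTA-like factor of early development, had a site of 1141 bp centred 400 bp upstream that ran 170 bp past the TSS. The AIL5 site held 13 GA repeats, of which 10 lay inside the gene record and 3 upstream of it. SWN, AG, AGL20 (SOC1), TFL2 (LHP1) and BMI1C (listed as AT3G23060) had eligible sequence and no upper promoter site. CLF, RING1B, DRIP1 and DRIP2 had no eligible sequence.

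The developmental regulators with an upper promoter site came from several families, and 14 of the 37 with any eligible sequence held one (37.8%, against 16.3% of all genes). The sites of SEP1, SEP3, STM and KNAT1 were under 200 bp, the extension size of the peak calls. The share without such short sites was not computed. Of the floral MADS-box genes, SEP1 had a site of 55 bp centred 842 bp upstream, SEP2 one of 323 bp at 727 bp, SEP3 one of 98 bp at 481 bp and SHP1 one of 305 bp at 730 bp. These floral sites were clear of the TSS, with near edges 433 to 815 bp upstream. Those of SEP1 and SEP3 were short, while those of SHP1 and SEP2 were near the median of 305 bp of all upper promoter sites. All but that of SEP1 had a separate THS at the TSS. The floral repressors MAF4 and MAF5, relatives of FLC, had longer sites of 667 bp at 426 bp and 435 bp at 392 bp, the first with 3 site II elements. Among the meristem and embryo homeobox genes, STM, WUS, KNAT1 and WOX2 had small sites at 344 to 764 bp. Their lengths were 130, 204, 148 and 249 bp. CUC1 and CUC2, which separate organs, had sites of 646 and 357 bp, and that of CUC1 ended 1 bp before the TSS. PLT2, a root stem cell factor, had a site of 666 bp at 472 bp with 4 GA repeats. The seed regulators LEC1, LEC2, FUS3 and ABI3 and the flowering genes FT, LFY and FLC had 700 bp of eligible sequence each and no upper promoter site. The same held for AGL20, DOG1, KNAT2, WOX5, WOX8, WOX11, CUC3, PLT1, AIL6, BBM, AP1, AG and STK. Several of these belong to families named above. KNAT6, AP3 and PI had 402 to 482 bp of eligible sequence and no upper promoter site either. Of all these genes without one, KNAT6, AP1, AP3, AG, BBM, FUS3 and FLC had a core promoter site.

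The longest upper promoter sites reached into the gene or close to its TSS. The 5 longest were at AT2G44800, an oxygenase gene (2070 bp), AT1G63010, a gene for a transporter with an SPX domain (1816 bp), AT1G04990, a zinc finger gene (1707 bp), AT5G26220, a ChaC-like gene (1630 bp), and AT3G05320, an O-fucosyltransferase gene (1594 bp). Those of AT2G44800, AT1G63010 and AT5G26220 ran 145, 219 and 357 bp past the TSS, and the other two ended 8 and 111 bp before it. Of the 57 genes with 2 upper promoter sites, the 5 with the most covered sequence had one site at 304 to 476 bp and one at 846 to 998 bp. TDT, a vacuolar dicarboxylate transporter gene, had sites of 1024 bp centred 314 bp and 154 bp centred 988 bp upstream. AT1G79150 had 535 bp at 304 bp and 527 bp at 846 bp, FAB1, a fatty acid synthesis gene, 551 bp at 476 bp and 267 bp at 968 bp, LRX3, a leucine-rich repeat gene, 257 bp at 418 bp and 580 bp at 998 bp, and NHL2 366 bp at 324 bp and 423 bp at 894 bp.

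Each gene named next was the one of its gene list with the most sites, ties going to the longest site. Most genes with a site held only 1, so the long sites here follow from that choice. HEC1, a bHLH factor of the flower, had 696 bp with 1 G-box and 2 W-box cores, WRKY39 896 bp with 2 G-boxes, ERF15 779 bp, NAC001 870 bp, ARF6, an auxin response factor, 649 bp, AGL19, a MADS-box gene, 1077 bp and CYP71B2 957 bp. EXPA1, an expansin gene, had 759 bp, the stress gene LEA14 772 bp with 2 W-box cores, the PPR gene AT1G11710 949 bp with 7 GA repeats, and the NLR gene AT5G46520 1069 bp. KAN, a leaf polarity factor, and MYB65, a factor in gibberellin responses, held 2 sites each, of 55 and 380 bp at KAN and of 179 and 477 bp at MYB65. PSAH-1, a photosystem I subunit gene, had 364 bp at 924 bp with 1 G-box, and RPN1A 483 bp at 846 bp with 10 GA repeats, 8 of them in the stretch printed above.

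The limits of the rule cut through a continuous distribution. Just inside the lower limit was the GAPC2 site of 1003 bp centred 301 bp upstream, and just outside it the AT2G21120 site of 1040 bp centred at 300 bp. Within 10 bp of that limit lay 46 sites inside and 39 outside. At the upper limit the AT2G20562 site of 293 bp was centred at 1000 bp and the AT1G05710 site of 1308 bp at 1001 bp, with 33 sites inside and 24 outside within 10 bp.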

How the data were processed

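ATAC-seq was performed on 12 samples, 2 replicates of each of 6 genotypes. According to their methods and processing notes, the authors used Trimmomatic for trimming and bowtie for mapping to the nuclear TAIR10 genome, removed duplicates (Picard) and reads in regions of excessive coverage, called peaks per replicate with MACS2, intersected the replicates of a genotype, and merged the genotypes. Tool versions were not given in the sources used here. The authors deposited the merge as chromosome, start and end in bp, with no count, signal or score. A region open in any 1 genotype is listed, intersecting can shorten regions, and the removed regions cannot hold one.

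Positions were compared with the RefSeq TAIR10.1 annotation (37899 gene and pseudogene records), whose chromosomes contain every region. Coordinates count from 1. The TSS was the outer 5′ end of a gene record, and only neighbouring TSSs counted as a divergent pair. Motif windows were the central 200 bp, which extend past shorter sites, and overlapping matches were counted. Shares have 95% Wilson and differences 95% Newcombe intervals. Scripts ran in Python 3.11.15 with NumPy 2.4.6, SciPy 1.17.1 and matplotlib 3.10.9 and were tested on constructed data. The sites and the 24 gene lists were chosen with earlier results of these data known. Lists were matched by product name and take in some genes outside their family. Named genes were those the study worked with, the 5 longest sites, the 5 genes with most sites, the gene with most sites in each list, ties by length, and the sites at each limit. Developmental regulators were named in addition. Alternatives changed the minimum length, merging, distances, limits, windows and chromosomes.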

Additional observations from a re-analysis of the deposited data

How the results depend on the processing

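No paired analysis was possible because the list holds no column of a sample. Of 151 alternative values for the 10 main results, 121 counted as unchanged. For shares, the median length and the density, that meant staying within the interval of the main value. For the number of sites it meant staying within 1.5 times its value. For differences it meant no reversal of sign and an interval that excluded 0, or included it, as the main one did. With regions of at least 200 bp only, the share of all sites was 11.9%, the median length 402 bp, the density 0.218 per kb, the share with a TSS site 14.6%, the share of genes with a site 12.1% and the median length exceeded that of core promoter sites by 56 bp, with intervals that no longer met. Merging regions less than 150 bp apart gave 20.5% with a TSS site and a length difference of 26 bp. With distance taken from the nearer edge, the values were 9.12% of all sites, 277 bp, 0.261 per kb, 31.2% with a TSS site and 14.2% of genes, and the G-box difference to core promoter sites was -0.723 points with an interval including 0. Whole regions as windows gave -1.47 points for it, also including 0. A divergent limit of 1000 bp gave 12% of all sites, 318 bp and a length difference of 30 bp, and one of 3000 bp gave 8.78% of all sites and 15.5% of genes. A lower limit of 200 bp gave 13.0% of all sites, 327.5 bp, 0.316 per kb, 18.0% with a TSS site, 18.8% of genes and a length difference of 56.5 bp. One of 400 bp gave 8.75% of all sites, 27.9% with a TSS site, 14.6% of genes and a length difference of 2 bp. Without chromosome 2 the length difference was 24 bp and without chromosome 1 it was 13.5 bp, against 18 bp in the whole list. The number of sites ranged from 1765 to 3020, beyond its Poisson interval of 2324.5 to 2518.4 on both sides. The G-box difference to tiles kept its sign in all 18 alternatives (4.80 to 15.5 points), as did the GC difference in its 17 (5.13 to 5.93). Counting any divergent pair, and the band of 32 to 37% GC, were chosen after seeing the data. The list cannot show which genotype opened a site.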

Other observations

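Few upper promoter windows held more than 1 of 4 motifs counted together. The shares that motifs placed independently of each other would give were not computed. At least 1 of the G-box, site II element, GA repeat and W-box core was in 1033 of 2420 windows (42.7%), at least 2 of these 4 in 192 (7.93%), and none of the 12 motifs in 754 (31.2%). Site II elements were in 23 of 237 windows with a G-box (9.70%) and in 14.8% of those without one, a difference of -5.09 points (Newcombe interval -8.60 to -0.431). The other 5 pairs of these motifs had intervals that included 0. Of 237 upper promoter windows with a G-box, 200 held 1, 32 held 2 and 5 held 3 or more.

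The base next to the G-box, read outward on both sides, was T at 35.3% of 558 ends in upper promoter sites, A at 29.9%, G at 24.4% and C at 10.4%. In core promoter sites it was T at 42.8%, A at 19.2%, G at 28.7% and C at 9.40% of 1096 ends, and in tiles T at 35.9%, A at 35.0%, G at 16.4% and C at 12.7% of 992 ends. Such flanking bases are known to alter which bHLH and bZIP factors bind. No difference between classes of sites was tested here.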
